A study of Mus musculus with 23 samples.

Results

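Dietary glucose and galactose enter the body through carriers of the small intestinal enterocyte, and 10 mouse genes for such carriers were followed here among the 55416 genes counted. They were chosen by name as members of the SGLT family (Slc5a1, Slc5a4a, Slc5a4b, Slc5a9 and Slc5a11) and of the GLUT family (Slc2a1, Slc2a2, Slc2a7, Slc2a8 and Slc2a9), leaving out the fructose carrier. RNA was measured by RNA-seq in mucosa scraped from the proximal part of the small intestine. The mice were of the strain C57BL/6JRccHsd, 42 days old and all labelled female. From day 21, for 3 weeks, the GAL42 mice (n = 12) ate a pelleted diet with 16% of energy as galactose and 16% as glucose. The GLU42 mice (n = 11) ate one with 32% of energy as glucose, otherwise the same. Each library came from 1 mouse, and the comparison asks how the carriers differ when galactose replaces part of the glucose.

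In the enterocyte, SGLT1 (Slc5a1) in the brush border couples the uptake of glucose or galactose to sodium, and the sodium pump of the basolateral membrane removes that sodium again. GLUT2 (Slc2a2), a facilitative carrier of the basolateral membrane, passes both sugars on towards the blood. Sugar in the gut lumen and the time of day are both known to act on SGLT1 in rodents.

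Libraries held 15382583 to 17174721 counts in genes, so that every carrier had at least 142 counts in every library. Enterocyte markers were present throughout, with a summed level of 57672 to 76060 CPM (a counts-per-million scale) in GAL42 libraries and 55376 to 74944 CPM in GLU42 libraries. GAL42 replicate 12, labelled female, held 4 Xist counts where the other libraries held 778 to 2351, and 225 counts of 4 Y-linked genes where any other held at most 1. GAL42 replicate 2 held 247.9 CPM of the pancreatic acinar markers Cpa1, Prss2, Pnlip and Cel, where any other library held at most 2.12 CPM.

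By edgeR's quasi-likelihood test with Benjamini-Hochberg adjustment over 13405 genes, 0 of the 10 carriers passed between the diets, and 0% of all tested genes did. At an unadjusted p under 0.05 stood 1 carrier that was higher in GAL42, Slc5a1, and 1 that was lower, Slc5a4b. Of all tested genes 8.63% were higher and 5.72% lower at that level, so 1 in 10 each way is near the background. The log2 difference, GAL42 minus GLU42, was positive for 7 of the 10 carriers against 49.5% of all tested genes, with a median of 0.09 over the carriers and -0.0017 over all tested genes. DESeq2 also called 0 of the carriers, as did limma-voom with sample quality weights and edgeR without GAL42 replicate 7, while these called 0.985%, 1.25% and 1.64% of all tested genes. In scrapings, fewer cells of a type and less RNA per cell cannot be told apart.

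Slc5a1 was by far the most abundant of the carriers. Its level was 3650 CPM in the lowest, 4354 CPM in the median and 5804 CPM in the highest GAL42 library, against 3164, 3829 and 4439.8 CPM in GLU42 libraries. The groups overlapped, with 7 of 12 GAL42 libraries inside the range of GLU42 and 5 above it, namely replicates 7, 8, 5, 3 and 2. At the lower end, 4 GLU42 libraries lay below every GAL42 library. The log2 difference was 0.25 ± 0.09 (SE; 95% interval 0.07 to 0.42), a fold of 1.19, at an unadjusted p of 0.00692 and an adjusted p of 0.203 by edgeR. Without GAL42 replicate 12 it was 0.27 and without replicate 2 it was 0.24. GAL42 mice also varied more in this gene, with a coefficient of variation of 17.1% against 10.4% in GLU42 mice, a difference in spread that was not tested.

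Slc2a2, the basolateral carrier, had 616 CPM in the lowest, 765 CPM in the median and 969 CPM in the highest GAL42 library, against 553, 747 and 882 CPM in GLU42 libraries. Most libraries of the groups overlapped, although 5 GAL42 libraries lay above all GLU42 libraries. The log2 difference was 0.14 ± 0.09 (95% interval -0.036 to 0.32, adjusted p = 0.454 by edgeR). Slc2a1 codes for GLUT1, the carrier that most tissues use for basal glucose supply. It stood at 11.5 ± 1.47 CPM in GAL42 and 11.6 ± 1.76 CPM in GLU42 libraries (SD), with a log2 difference of -0.013 (95% interval -0.19 to 0.16). An antisense gene overlaps 105 of its 3506 annotated exon bases, and the sources used here do not say if the counting used strand.

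**Figure D1:**
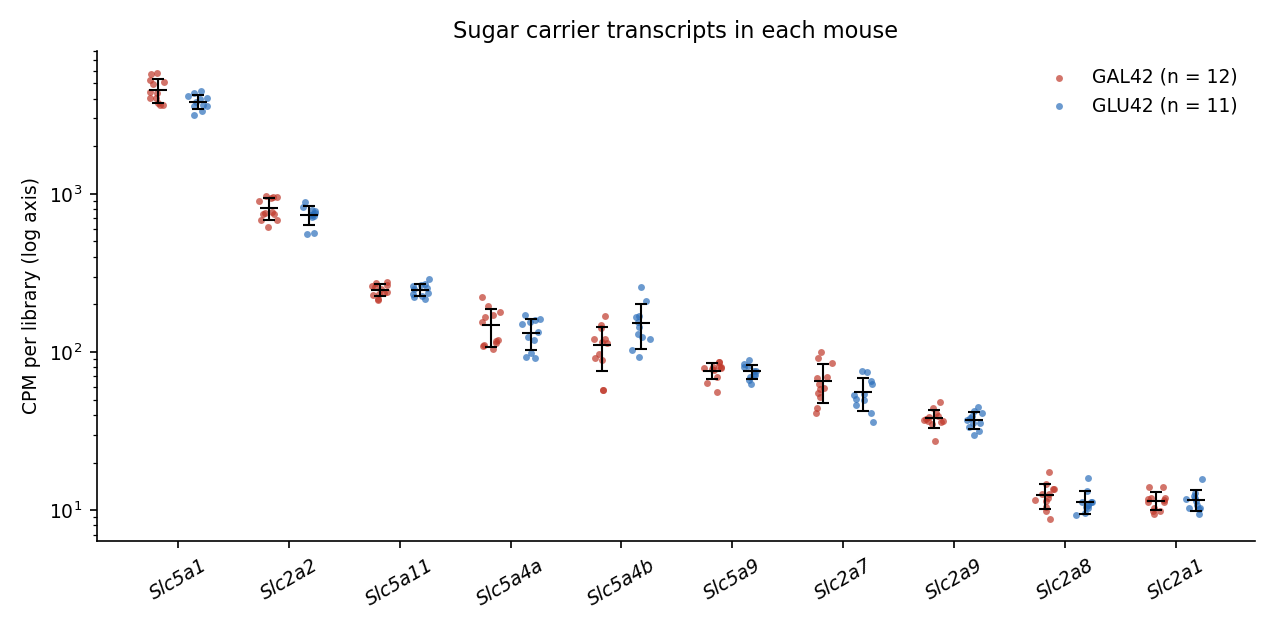
Level of each of the 10 carriers in CPM (log axis) in every library, GAL42 in red and GLU42 in blue, with the mean and SD in black. Slc5a1 ranges from 3164 to 5804 CPM and Slc2a1 from 9.47 to 15.8 CPM, and the diets overlap in every gene.

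Between genes, levels were compared as CPM per kilobase of the longest protein-coding transcript. Slc5a1 had 1108 ± 190 CPM per kilobase in GAL42 and 932 ± 97.2 in GLU42 libraries (SD), which was 71.8 ± 2.20% and 69.0 ± 2.13% of the sum over the 10 carriers. Slc2a2 came next, with 145 ± 23 in GAL42 and 132 ± 17.7 in GLU42 libraries. It was followed by Slc5a11 (103 ± 9.13 and 103 ± 9.54), Slc5a4a (71.5 ± 19.5 and 64.5 ± 14.3), Slc5a4b (34.4 ± 10.6 and 47.6 ± 15.1) and Slc2a7 (41.5 ± 11.5 and 35.2 ± 8.15), all as CPM per kilobase in GAL42 and in GLU42 libraries. Slc5a9, Slc2a9, Slc2a8 and Slc2a1 closed the order at 17, 10.6, 5.88 and 3.52 CPM per kilobase in GAL42 and 16.8, 10.3, 5.36 and 3.55 in GLU42 libraries. Each gene lay above the next in at least 21 of 23 libraries, except that Slc5a4b exceeded Slc2a7 in 11 of 23, so these neighbours were not separated. The order rests on annotated lengths. Ranked on coding length instead, the 10 genes kept the same order.

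Transcripts of the brush border carrier outnumbered those of the basolateral one in every mouse. The ratio of Slc5a1 to Slc2a2 per kilobase was 6.55 in the lowest, 7.51 in the median and 9.60 in the highest GAL42 library, against 6.08, 7.12 and 8.87 in GLU42 libraries. The means were 7.64 ± 0.82 and 7.14 ± 0.82 (SD), a difference of 0.50, which is less than the SD within either diet. When Slc2a7 was added on the apical side and Slc2a1 on the basolateral side, the ratio averaged 7.73 ± 0.80 in GAL42 and 7.21 ± 0.81 in GLU42 libraries. With coding length in place of transcript length the first ratio was 4.43 in GAL42 and 4.14 in GLU42, since the annotated Slc2a2 transcript has 5569 bases and the Slc5a1 transcript 4104. The size of the excess thus depends on the length used. No test was made on these ratios.

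**Figure D2:**
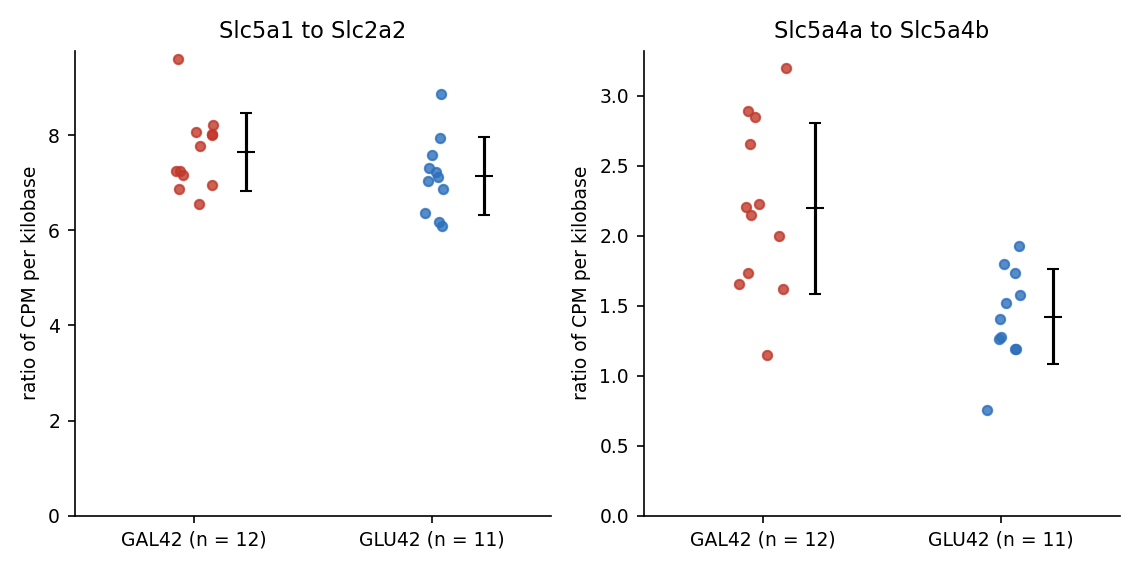
Ratio of Slc5a1 to Slc2a2 (left) and of Slc5a4a to Slc5a4b (right) in each library, as CPM per kilobase, with the mean and SD of the diet in black. Both ratios overlap between GAL42 and GLU42. In the first, 9 of 12 GAL42 libraries lie above the GLU42 median of 7.12. In the second, which was looked at after the values of its genes were seen, 11 of 12 lie above the GLU42 median of 1.41.

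Slc5a4a and Slc5a4b are the mouse genes for SGLT3, a relative of SGLT1 whose human form acts as a glucose sensor more than as a carrier. Both lie on chromosome 10, on opposite strands. Their coding sequences are 79.2% identical over 1967 aligned bases, and the longest identical run has 50 bases. Of the 100-base windows of either annotated transcript, 0% occurred in a transcript of any other gene, and of the 50-base windows 0.05% of those of Slc5a4a and 0.98% of those of Slc5a4b did. The 120-base stretch from coding base 63 to 182 of GENCODE M21 is shown because its identity is that of the whole coding sequence, and so shows how densely the bases lie that separate reads of the pair. Capitals mark the 25 bases that differ.
Slc5a4a: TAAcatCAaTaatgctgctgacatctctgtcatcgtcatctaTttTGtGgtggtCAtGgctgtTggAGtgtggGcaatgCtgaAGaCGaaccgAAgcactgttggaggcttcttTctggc
Slc5a4b: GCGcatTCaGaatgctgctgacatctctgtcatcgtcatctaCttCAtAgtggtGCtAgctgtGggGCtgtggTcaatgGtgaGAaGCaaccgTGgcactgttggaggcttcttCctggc

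The log2 differences of this pair had opposite signs. Slc5a4b had 57.4 CPM in the lowest, 115 CPM in the median and 169 CPM in the highest GAL42 library, against 93.5, 144 and 258 CPM in GLU42 libraries. In 10 of 12 GAL42 libraries it lay below the GLU42 median, and 4 lay below every GLU42 library. Its log2 difference was -0.47 ± 0.17 (SE; 95% interval -0.82 to -0.12), at an unadjusted p of 0.0110 and an adjusted p of 0.217 by edgeR, and was -0.46 without GAL42 replicate 12 and -0.48 without replicate 2. Slc5a4a had 105, 137 and 224 CPM in GAL42 libraries (lowest, median, highest), against 91.2, 135 and 172 CPM in GLU42 libraries, and a log2 difference of 0.15 ± 0.14 (95% interval -0.13 to 0.43). The ratio of Slc5a4a to Slc5a4b per kilobase, which was looked at after these values were seen, averaged 2.19 ± 0.61 in GAL42 and 1.42 ± 0.34 in GLU42 libraries (SD). It was not tested.

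The other members of the SGLT family varied little and showed small differences. Slc5a11, the SMIT2 gene for a sodium-coupled carrier of myo-inositol, had 246 ± 21.9 CPM in GAL42 and 248 ± 22.9 CPM in GLU42 libraries. Its log2 difference was -0.0072 with a 95% interval of -0.13 to 0.11, the narrowest of the 10. Slc5a9, the SGLT4 gene for a carrier of mannose among other sugars, had 76.3 ± 9.10 CPM in GAL42 and 75.3 ± 7.82 CPM in GLU42 libraries (0.019, 95% interval -0.12 to 0.16). Among the GLUT family, Slc2a7, an apical carrier of the small intestine, had 65.6 ± 18.2 CPM in GAL42 and 55.5 ± 12.9 CPM in GLU42 libraries (0.24, 95% interval -0.044 to 0.53). Slc2a8, whose GLUT8 protein lies mostly inside the cell, had 12.4 ± 2.30 and 11.3 ± 1.86 CPM (0.13, 95% interval -0.072 to 0.34). Slc2a9, best known as a urate carrier, had 38.2 ± 5.05 and 37.2 ± 4.61 CPM (0.036, 95% interval -0.12 to 0.19). All bracketed values are log2 differences, GAL42 minus GLU42.

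**Figure D3:**
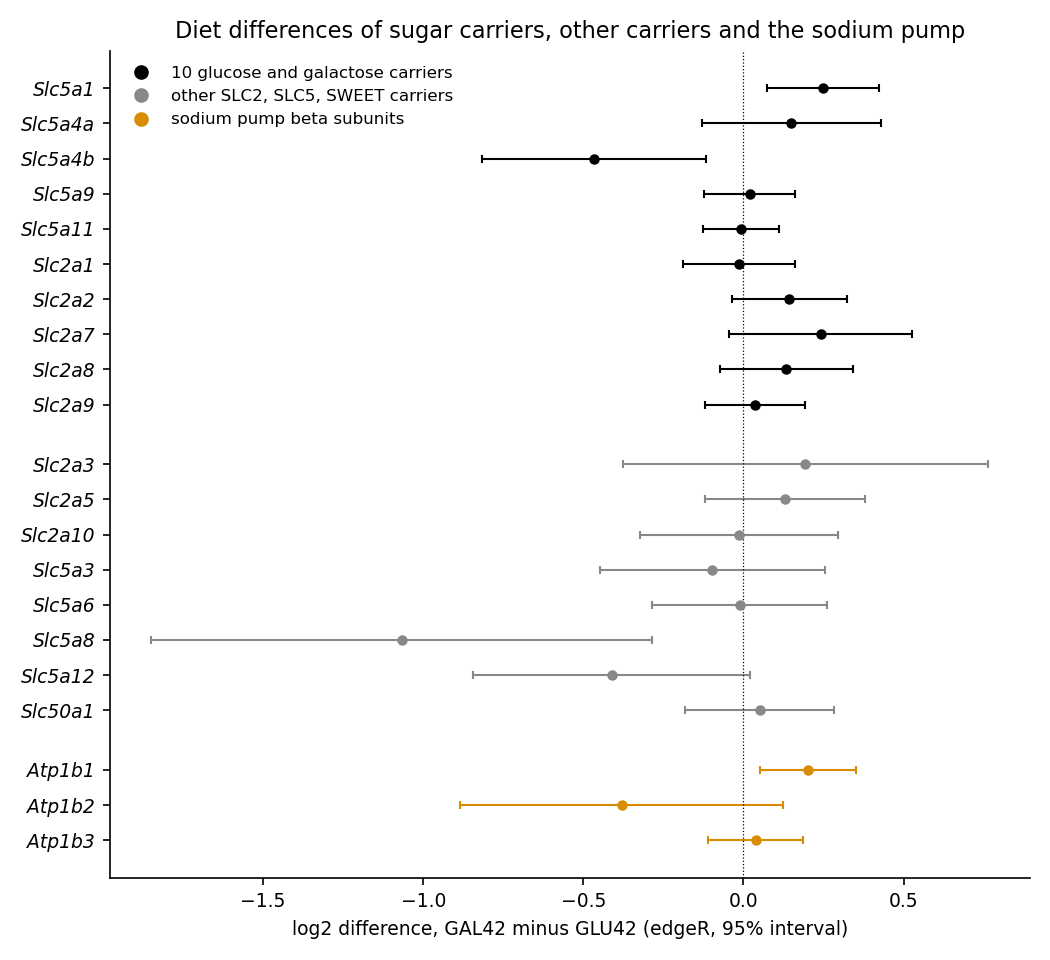
Log2 difference, GAL42 minus GLU42, with its 95% interval by edgeR, for the 10 carriers (black), other tested carriers of these families (grey) and the sodium pump beta subunits (orange). The intervals of Slc5a1 and Atp1b1 lie above 0 and those of Slc5a4b and Slc5a8 below it, and 0 of these genes passed after adjustment.

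Atp1b1 codes for a beta subunit of the sodium pump, which the pump needs to reach the membrane. It averaged 2684 CPM in GAL42 and 2336 CPM in GLU42 libraries (log2 difference 0.20 ± 0.07, adjusted p = 0.217 by edgeR). Of 7 pump genes 6 were tested and 0 passed, with 3 log2 differences positive and 3 negative (median -0.10). The minor beta subunit Atp1b2 had a log2 difference of -0.38. Of 16 other SLC2, SLC5 and SWEET carriers 8 were tested, 0 passed, and 5 of 8 differences were negative (median -0.013). The smallest p-values were those of the monocarboxylate carriers Slc5a8 (4.18 ± 1.87 CPM in GAL42 and 8.75 ± 6.63 CPM in GLU42, log2 difference -1.07 ± 0.38, adjusted p = 0.210 by edgeR) and Slc5a12 (-0.41), followed by the fructose carrier Slc2a5 (0.13) and by Slc2a3 (0.19).

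Among 19 regulators of these carriers 18 were tested, 0 passed, and 10 of 18 differences were negative (median -0.019). The factors Sp1 (-0.20 ± 0.06, adjusted p = 0.159 by edgeR) and Hnf4a (-0.14) had the smallest p-values, and Mlx (0.09) was also among the 4 smallest. Rsc1a1, named for its action on SGLT1, had 0 counts. Overlap of its exons with other genes was not checked, so 0 counts need not mean that it is not transcribed. Of 8 genes of sweet taste sensing and incretins 6 were tested and 0 passed (median -0.13), with Plcb2 (-0.20), Gip (0.09), Glp2r (-0.22) and Trpm5 (-0.08) first by p. Tas1r2 and Gnat3, parts of the sweet taste pathway, had at most 19 and 12 counts in any library.

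From mouse to mouse some of the carriers moved together. Pearson's r was computed over the 23 libraries on log2 CPM with the diet means removed, for all 45 pairs of carriers, with permutation p-values adjusted over the 45. At an adjusted p under 0.05 for Pearson's r stood 14 pairs, 13 of them positive. The share of called pairs among all tested genes was not computed, so this count is not read as particular to the carriers. By permutation of Spearman's rho, Slc5a4b with Slc5a9 (adjusted p = 0.0559), Slc5a4b with Slc2a9 (0.0559) and Slc5a9 with Slc2a9 (0.298) did not pass. Neither did the negative pair, Slc2a1 with Slc2a9 (0.103). Slc5a1 went with Slc5a4a (r = 0.76, rho = 0.74, permutation p = 5e-05 and 0.00010, adjusted p = 0.00113 and 0.00150), with Slc2a2 (r = 0.73, rho = 0.72, permutation p = 0.00012 and 0.00019, adjusted p = 0.00180 and 0.00214) and with Slc2a7 (r = 0.69, rho = 0.66, permutation p = 0.00037 and 0.00096, adjusted p = 0.00369 and 0.00735). Slc5a4a and Slc2a7 formed the closest pair (r = 0.80, rho = 0.84, permutation p = 2e-05 and 3e-05, adjusted p = 0.00090 and 0.00135). Without the 2 libraries farthest from the median of the first gene, r was 0.67, 0.68, 0.61 and 0.78 for these 4 pairs.

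Slc5a4b had an r of 0.09 with Slc5a1 (rho = 0.17, permutation p = 0.698 and 0.440, adjusted p = 0.785 and 0.620). It went with Slc5a11 (r = 0.67, rho = 0.74, permutation p = 0.00041 and 9e-05, adjusted p = 0.00369 and 0.00150), and Slc5a11 went with Slc2a9 (r = 0.64, rho = 0.65, permutation p = 0.00086 and 0.00098, adjusted p = 0.00645 and 0.00735). Without the 2 farthest libraries r was 0.75 and 0.65. Slc5a4a also went with Slc5a4b (r = 0.54, rho = 0.65, permutation p = 0.00818 and 0.00118, adjusted p = 0.0293 and 0.00759), a call lost on CPM without TMM scaling (r = 0.50, adjusted p = 0.0616). The enterocyte marker score followed Slc5a9 (r = 0.68, rho = 0.73, adjusted p = 0.0036 and 0.00468 over 36 relations with library scores, permutation p = 0.00031 and 0.00013) but not Slc5a1 (r = 0.013). The 1 called negative pair was Slc2a1 with Slc2a9 (r = -0.51, rho = -0.44, permutation p = 0.0134 and 0.0344, adjusted p = 0.0431 and 0.103). This call was lost with the length slope removed (adjusted p = 0.0562), without GAL42 replicate 12 (0.0566) and on CPM without TMM scaling (0.204), by permutation.

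**Figure D4:**
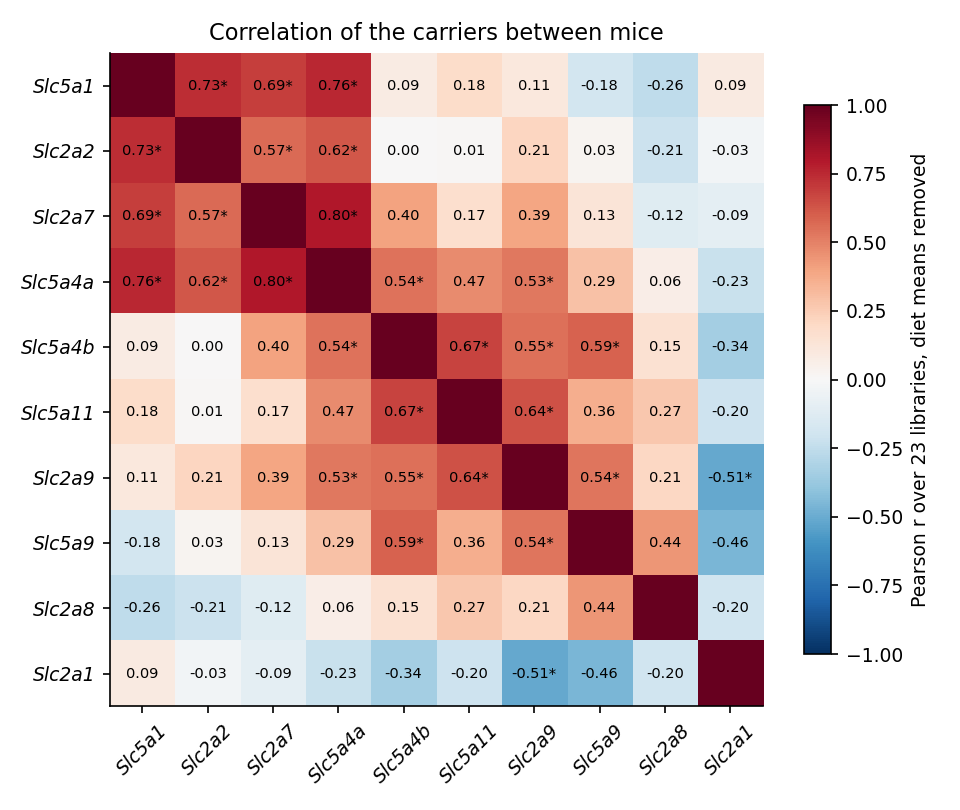
Pearson's r between the 10 carriers over 23 libraries with the diet means removed, with a star where the permutation p adjusted over 45 pairs is under 0.05. Values are positive among Slc5a1, Slc2a2, Slc2a7 and Slc5a4a (0.57 to 0.80) and among Slc5a4b, Slc5a11, Slc2a9 and Slc5a9 (0.36 to 0.67). By Spearman's rho the starred pairs Slc5a4b with Slc5a9, Slc5a4b with Slc2a9, Slc5a9 with Slc2a9 and Slc2a1 with Slc2a9 did not pass. Slc5a9 with Slc5a11 has no star, and its r was 0.09 within GAL42 and 0.73 within GLU42. For Slc5a4a with Slc2a2 r was 0.86 within GAL42 and 0.28 within GLU42.

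Of 7571 named genes with a mean of at least 10 CPM, the one most like Slc5a1 was Atp1b1, with r = 0.94 over the 23 libraries. Within GAL42 mice r was 0.95, and within GLU42 mice 0.92. The 5 GAL42 libraries above every GLU42 library were picked by their Slc5a1 level, so a high level of Atp1b1 in them follows from the choice. Slc2a2, which also went with Slc5a1, had a median of 960 CPM in them, against 741 CPM in the other GAL42 and 747 CPM in GLU42 libraries. Replicates 8, 2, 7 and 3 lay at 947 to 969 CPM of Slc2a2, above every other library. Replicate 5, at 742 CPM, lay among the other libraries, which reached 895 CPM in GAL42 and 882 CPM in GLU42. In the other 18 libraries r was 0.92 for Atp1b1 and 0.66 for Slc2a2. Atp1b1 was picked by its r over all 23 libraries, these 18 among them, so the 2 values are not a fair comparison. The plain CPM ratio of Slc5a1 to Atp1b1, used here only to compare libraries, was 1.69 ± 0.10 in GAL42 and 1.64 ± 0.07 in GLU42 libraries (SD). Its coefficient of variation was 5.86% and 4.25%, lower than that of Slc5a1 itself. This lower variation follows from picking Atp1b1 for its r with Slc5a1 in the same libraries. Others among the 5 most alike were Got1, the cytosolic aspartate aminotransferase (r = 0.85), Slc2a5 (0.85) and the mucin glycosyltransferase Gcnt3 (0.82). These r values were the highest of many and are given with no p.

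**Figure D5:**
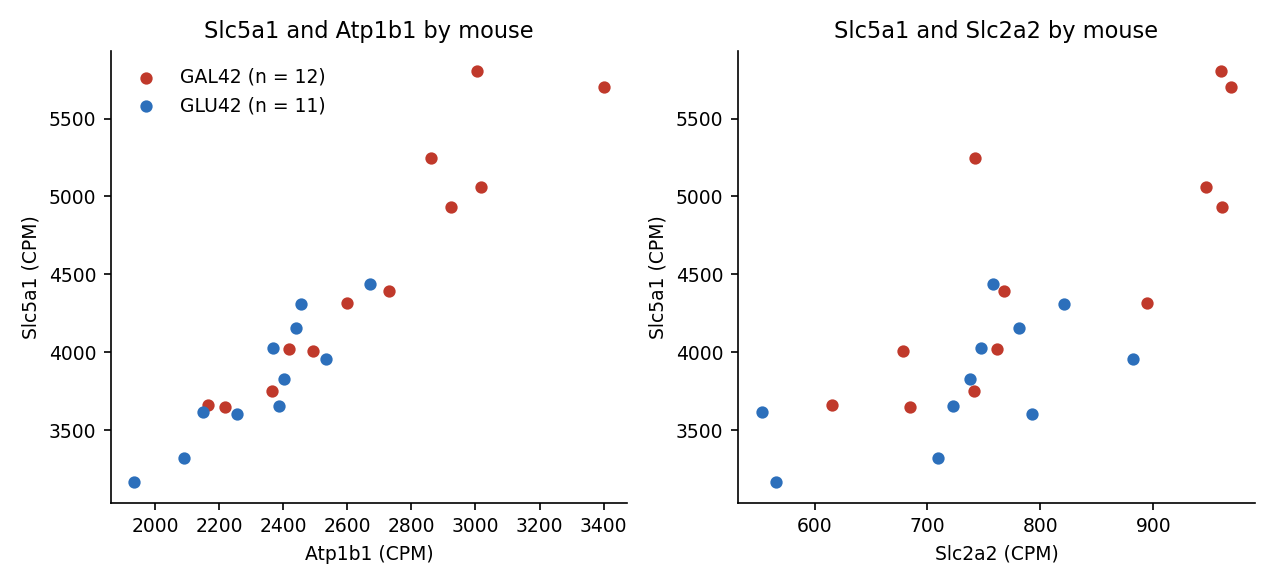
Slc5a1 against Atp1b1 (left) and against Slc2a2 (right) in each mouse, in CPM, GAL42 in red and GLU42 in blue. The points lie close to a line for Atp1b1, with 5 GAL42 mice at the upper end, and scatter more for Slc2a2.

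For Slc2a2 the genes most alike were Atp1b1 (r = 0.81), the sodium bicarbonate carrier Slc4a7 (0.80), Bpnt1 (0.76), the proton channel gene Otop3 (0.75) and Papss2, an enzyme of sulfate activation (0.75). For Slc5a4b they were Mccc1, an enzyme of leucine breakdown (0.85), the nucleoside carrier Slc28a1 (0.81), the GABA aminotransferase Abat (0.81), Sh3glb2 (0.80) and Aldh9a1 (0.79). Of these 5 genes 4 had a negative log2 difference, from -0.71 ± 0.17 for Slc28a1 (adjusted p = 0.135 by edgeR) to -0.026 for Mccc1, and Sh3glb2 had one of 0.08.

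Genes of the circadian clock also moved with some carriers. A clock score was the mean log2 CPM of 6 tested genes that peak together (Nr1d1, Nr1d2, Dbp, Tef, Hlf and Per3) less that of Arntl, Npas2, Clock and Nfil3. It was set up after clock genes had been seen among the genes most like Slc5a4a and Slc2a7, so its r values are given with no p. Its relations were among the 36 with library scores over which p-values were adjusted. Its r was 0.74 with Slc5a1, 0.74 with Slc2a7, 0.69 with Slc5a4a, 0.34 with Slc2a2 and 0.27 with Slc5a4b over the 23 libraries. Without the 2 libraries of most extreme score these were 0.61, 0.68, 0.56, 0.13 and 0.18. The score was -0.98 ± 1.44 in GAL42 and -1.16 ± 1.05 in GLU42 libraries (SD), and ranged from -2.81 to 1.61 and from -3.10 to 0.45. With the score as covariate the log2 difference of Slc5a1 was 0.22 ± 0.06 (SE), against 0.25 ± 0.09 without it. The difference of Slc2a7 was 0.19 with the score and 0.24 without it. Because the score was set up from genes like the carriers in these same libraries, the smaller SE is no added evidence of a diet difference. The sources used here do not give the time of day at which mice were killed.

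For 9 of the carriers RefSeq gives a start site in the build GRCm38.p6, and the 250 bases before it were searched on both strands for 4 motifs, the GC box GGGCGG, the E-box CACGTG that clock and other basic helix-loop-helix factors bind, the TATA box TATAAA and the D-box TTATGTAA. The stretch of Slc5a1 is shown because it is the 1 among the 9 with an E-box, which starts at base -143 and is in capitals, and that of Slc2a2 as the main basolateral carrier, with 0 matches. Slc2a7 and Slc5a4a, with r of 0.74 and 0.69 to the clock score, had 0 E-boxes and 0 D-boxes. An E-box stands in 6.04% and a D-box in 0.81% of 32536 such stretches, so finding none is the usual case. A match is no evidence of binding, and a part of the clock in these carriers was not tested. Both stretches shown are on the plus strand, at chr5:33103969-33104218 and chr3:28697653-28697902.
Slc5a1: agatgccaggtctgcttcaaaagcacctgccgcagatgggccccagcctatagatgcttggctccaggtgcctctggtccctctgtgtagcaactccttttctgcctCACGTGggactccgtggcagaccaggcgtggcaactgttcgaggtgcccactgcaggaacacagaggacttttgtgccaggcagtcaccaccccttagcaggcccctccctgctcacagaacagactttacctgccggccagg
Slc2a2: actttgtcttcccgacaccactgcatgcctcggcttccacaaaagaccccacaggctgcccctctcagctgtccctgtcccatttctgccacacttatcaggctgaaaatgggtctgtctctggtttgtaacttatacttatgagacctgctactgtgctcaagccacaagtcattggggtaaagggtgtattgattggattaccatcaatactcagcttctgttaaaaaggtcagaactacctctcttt

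Of the markers of other cells 0 passed the adjusted test, and the part of their shifts in the carriers' differences was not tested. Of 5 T cell markers 5 of 5 were higher in GAL42 (median log2 difference 0.57), with a summed level of 33.4 to 78.2 CPM in GAL42 and 15.5 to 67.2 CPM in GLU42 libraries. Of 6 crypt base stem cell markers 6 of 6 were lower (median -0.31), at 61.5 to 224 CPM in GAL42 and 90.0 to 290 CPM in GLU42 libraries. Paneth (5 of 5, median -0.23), tuft (4 of 4, -0.16), smooth muscle (4 of 4, -0.28) and goblet cell markers (4 of 5, -0.17) were also mostly lower, and 49.5% of all tested genes had a positive difference. Endothelial markers, relevant to Slc2a1, summed to 25.9 to 55.4 CPM in GAL42 and 23.8 to 57.4 CPM in GLU42 libraries. Duodenal markers summed to 15.5 to 102 CPM in GAL42 and 10.4 to 47.9 CPM in GLU42 libraries. The enterocyte score averaged 11.8 in both diets, and with it as covariate the log2 difference was 0.25 for Slc5a1 and -0.44 for Slc5a4b. The slope, on log2 transcript length, of a library's log2 levels less each gene's mean averaged -0.031 ± 0.057 in GAL42 and 0.033 ± 0.047 in GLU42 libraries (SD). With that slope as covariate, the difference was 0.22 for Slc5a1, -0.42 for Slc5a4b and 0.12 for Slc5a9. The unadjusted p by edgeR was then 0.0376 for Slc5a1 and 0.0570 for Slc5a4b, so the call of Slc5a4b at that level was lost, and of all tested genes 3.81% were higher and 2.92% lower at that level.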

How the data were processed

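STAR, HTSeq and the build GRCm39 are named in the submitters' processing notes, without versions. The sources used here give no annotation release, strand setting or filter. The authors deposited raw read counts per gene, 1 file per mouse. The 5 rows that name no gene held 13.5% of reads and were left out. Symbols were found for 52083 of 55416 genes. Library pairs of 1 diet, 121 in all, differed by more than sampling noise (chi-square per degree of freedom 12.9 to 51.3). P-values measure the spread between mice.

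Diets were compared with edgeR 4.0.16 (R 4.3.3) over all 23 libraries, after filterByExpr and TMM scaling, with diet as the only term. P-values were adjusted by Benjamini-Hochberg at 0.05. DESeq2 1.42.0 and limma 3.58.1 served as alternatives. Correlations used log2 CPM (prior count 2) and two-sided permutation tests with 100000 resamples. Transcript and coding lengths came from GENCODE M21. The coding length planned from RefSeq proteins was replaced by that of GENCODE. Members and gene lists were chosen with earlier results of these data known. All 10 members were named, with the 4 list genes of smallest p and the 5 genes most like Slc5a1, Slc2a2 and Slc5a4b, unnamed and predicted genes left out. The clock list and ratios of single pairs other than Slc5a1 to Slc2a2 were added after values were seen. Some genes that this rule picks are not reported here.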

Additional observations from a re-analysis of the deposited data

How the results depend on the processing

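The carriers' call, 0 of 10, was the same under each of the 10 alternative fits and without each of the 23 libraries in turn. The number of genes called overall was 0 with edgeR, 132 with DESeq2 and 167 when limma-voom used quality weights. It was 0 to 219 without each library, with GAL42 replicate 7 the library whose removal gave 219. Over the alternative fits the log2 difference ran from 0.21 to 0.25 for Slc5a1 (smallest adjusted p = 0.0951, DESeq2) and from -0.48 to -0.42 for Slc5a4b (smallest adjusted p = 0.112, limma-voom with quality weights). Without each library it ran from 0.21 to 0.27 and from -0.54 to -0.36 (smallest adjusted p = 0.157 and 0.119 by edgeR). The 4 smallest differences changed sign, and the cause was not tested. With quality weights Slc5a9 stood at -0.00025, Slc5a11 at 0.00075 and Slc2a1 at 0.0086. Without each library Slc5a9 ran from -0.0089 to 0.054, Slc5a11 from -0.028 to 0.017, Slc2a1 from -0.043 to 0.037 and Slc2a9 from -0.0012 to 0.073. DESeq2 gave no adjusted p for Slc2a1 and Slc2a8.

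The ratio of Slc5a1 to Slc2a2 was 4.43 in GAL42 and 4.14 in GLU42 on coding length, and 5.63 and 5.26 on plain CPM. The ratio of Slc5a1 with Slc2a7 to Slc2a2 with Slc2a1 was 4.44 and 4.14 on coding length, and 5.63 and 5.25 on plain CPM. Of the 14 correlated pairs 9 pairs were called on CPM without TMM scaling. With the clock score removed 16 of 45 pairs were called, 14 positive and 2 negative. In that setting r of Slc5a1 was 0.31 with Slc2a7, 0.51 with Slc5a4a and 0.77 with Slc2a2. For Slc5a4a with Slc2a7 r was then 0.60. The score was set up after clock genes were seen among the genes most like Slc5a4a and Slc2a7. A lower r of these genes with the score removed follows in part from that choice, and the role of the clock was not tested. No paired analysis was possible because the labels give no replicate numbers, and those used here only name the mice.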
